A study of Drosophila melanogaster with 18 samples.

Results

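Among the genes that carried no name but a CG number, 133 were higher in heads of miR-210 knockout flies than in wild-type heads. They were chosen by their values. Counts of each head library were divided by the library's total and scaled to CPM, the usual counts-per-million unit. A gene was taken when its symbol in the deposited table was CG followed by digits, its mean knockout CPM was at least 2 and at least 1.3 times the mean wild-type CPM, and all 3 knockout libraries lay above all 3 wild-type libraries. CG11425, CG11437 and CG11438 were left out beforehand, and none of them met the values. The 133 members came from 6572 rows with a CG symbol in a table of 15406 genes, and 3593 of those CG rows reached the minimum of 2 CPM. Because the difference between the genotypes chose the members, their ratios are given as a description and without a test.

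The wild type was wDah, the outbred white Dahomey stock, and the knockout was miR-210Δ (mir210KO), a null allele made with Cas9 and a pair of guides on either side of the miR-210 gene. According to the protocols, transgenic lines were crossed back into the Dahomey background, which carries the endosymbiont Wolbachia, over several generations, and once-mated females are named for the experiments in general. Whether that holds for heads taken so soon after eclosion is not stated. Each genotype had 3 poly(A) RNA libraries of heads from adults aged 1 h after eclosion. Small RNA libraries of other tissues in the series hold no mRNA and were not used. Nothing in the labels says that replicates came from separate sets of flies, so a p-value below measures only the spread between these libraries, which may be technical. The labels do not say how many independent deletions the knockout samples came from, so the deletion and anything else that differs between the knockout flies and the wDah stock cannot be told apart.

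A CG number is the placeholder given to a gene predicted from the Drosophila genome sequence until somebody names it after a phenotype or a product. Such genes include copies of enzyme families, short secreted proteins and genes used mainly in other tissues or stages, so that many of them have a recognisable protein but no described function. A miRNA pairs through its seed, the bases near its 5′ end, with matching bases in the 3′ UTR of a target mRNA and lowers the level or the translation of that mRNA. Loss of a miRNA is therefore known to raise direct targets, while most changes in a mutant tissue can also be indirect.

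Because pairing with a miRNA runs through its seed, the seed and the 4 sites that match it in members' 3′ UTRs are shown here, with sequences from the RefSeq annotation of Release 6 (dm6). The mature miR-210-3p is annotated at chrX:18128270-18128292 on the plus strand. Bases 2 to 8 of that annotated sequence were taken as the seed and are in capitals. The authors name UGCGUGU as the functional seed, which starts further along that sequence. They mutated ACGCACA in a reporter of Fasn1, a fatty acid synthase gene, and that word pairs with bases 3 to 9 here. Which 5′ end the miRNA has in these flies was not tested.
miR-210-3p: cUUGUGCGugugacagcggcuau
The reverse complement of the seed, CGCACAA, was searched on the transcribed strand in every annotated 3′ UTR, and the match is in capitals in the sites below.
CG17996, chr2L:16730484-16730490, minus strand: aattaaaacgcCGCACAAtagtctctgtt
CG13604, chr3R:23988850-23988856, minus strand: ccatgtaacaaCGCACAAcataatggaac
CG2941, chrX:3940182-3940188, plus strand: gactttggacaCGCACAAgaggacacaca
CG3823, chrX:6306506-6306512, plus strand: tcgccgtgCGCACAActgtaccttaa
These 4 were all the members with CGCACAA, 3.05% of the 131 members with an annotated 3′ UTR. Of 3580 CG rows with a knockout mean of at least 2 CPM, 114 held it, which is 3.18%. By the annotated numbering, none of the 4 sites was followed by the A that lies opposite base 1 of the miRNA. Of the 3580 CG rows, 42 had a match with that A. If the miRNA started at the annotated base 2, the A opposite its first base would be the last of CGCACAA, which all 4 sites hold. The shorter match to bases 2 to 7, GCACAA, which lies within CGCACAA, was found in 24 members (18.3%) and in 14.2% of the CG rows. The match to bases 3 to 9, ACGCACA, the word mutated in the reporter, was found in 4 members (3.05%) and in 4.16%. Among the sites above, those of CG13604 and CG2941 also hold that word. A match is a string of letters and no measured site.

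The 4 genes with a CGCACAA site were low in the range of ratios. CG13604, now Epp, the ecdysteroid phosphate phosphatase that releases active hormone from its phosphate conjugate, was at 18.8, 15.8 and 15.96 CPM in wild-type replicates 1, 2 and 3 and at 22.4, 22.8 and 20.6 CPM in the knockout. CG3823, whose closest named protein was pinta at 23.1% identity, a retinoid-binding protein of the eye, was at 6.39, 6.10 and 5.39 CPM against 8.59, 7.53 and 7.50 CPM. CG2941, now Glos, was at a mean of 5.66 ± 0.60 CPM in wild type and 7.45 ± 1.12 CPM in the knockout (SD, n = 3, as for every ± here), and CG17996 was at 5.05 ± 0.44 and 6.78 ± 0.62 CPM. The groups did not overlap for any of the 4, as the rule required, and their ratios were 1.302 to 1.34. Glos is 96.8% identical in protein to its neighbour Gem4b, which was listed at 0 in all 6 libraries, and since reads mapping to several places were removed, its level is uncertain.

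The 6 libraries held 17992976 to 21315973 counts. In edgeR's quasi-likelihood test over all 9470 genes that passed its filter on low counts, 376 genes were higher in the knockout (3.97% of those tested) and 580 were lower (6.12%) at an adjusted p under 0.05. When libraries were scaled by their totals, as in the rule, the same test gave 793 higher and 407 lower. Wild-type replicate 3 stood apart: its counts differed from those of replicates 1 and 2 by chi-square values of 21.6 and 18.8 per degree, where the other pairs of replicates gave 2.44 to 4.12. Its summed CPM of 8 muscle markers was 22330 against 15410 to 17650 in the other 5 libraries, and that of 8 gut markers was 23.2 against 5.61 to 8.87, with Jon99Cii and betaTry at 0 throughout. All 11 photoreceptor markers were lower in the knockout, among them ninaE, the main rhodopsin, and their summed level fell from 26550 to 29770 CPM in wild type to 17140 to 17650 CPM. In RNA from whole heads, fewer cells of a type and less RNA per cell cannot be told apart. None of 6 neuron and none of 6 tested muscle markers was called, and the glia, fat body, hemocyte, cuticle and gut lists had at most 1 call in each direction. Of 3 testis markers tested, can and bol were higher and mia was not called (log2 fold change -0.12, edgeR adjusted p = 0.73). The level of can was 0 to 0.14 CPM in wild type and 4.50 to 6.78 CPM in the knockout. That of bol was high in both genotypes, at 244.0 to 268.8 CPM and 293.0 to 344.8 CPM. Of the untested markers, sa was at 0 in all libraries, and dj and Mst87F were highest in wild-type replicate 3, at 2.36 and 1.67 CPM. The call of bol was kept in 9 of 12 alternatives, with adjusted p up to 0.092. No ovary or tubule marker passed the filter, and no sensory neuron marker was called. The part of these shifts in the members' values was not tested.

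The members were lower than the median CG gene of the head per kilobase of exon. Their median knockout level was 6.19 CPM per kilobase of annotated exon, against 12.1 over the 3592 CG rows at the same minimum that have an annotated exon length. Their mean knockout CPM ran from 2.02 for CG3117 to 462 for CG17839, with a median of 8.06. A mean under 10 CPM was found for 74 members, and 9 members reached 100 CPM. The median ratio of knockout to wild type was 1.47, or 0.55 in log2, whereas the median over all genes tested was 0.06 in log2 by library totals and 0.0011 after TMM scaling. Ratios were under 1.5 for 73 members, at least 2 for 22, at least 3 for 13 and at least 5 for 9. The edgeR fit called 86 of the 133 members higher, where 3.97% of all genes tested were called higher, and nothing is read from this share because the same difference chose them. Likewise, 26.8% of all rows at the minimum had all 3 knockout values above all 3 wild-type values. At the edge of the rule, CG4278, CG13604, CG17841, CG8170 and CG15522 entered with ratios of 1.3004 to 1.3072, and CG8498, CG18508, CG16717, CG8712 and CG7079 stayed out with 1.2937 to 1.2992. With TMM scaling 96 genes would have met the rule, all of them among the 133.

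**Figure D1:**
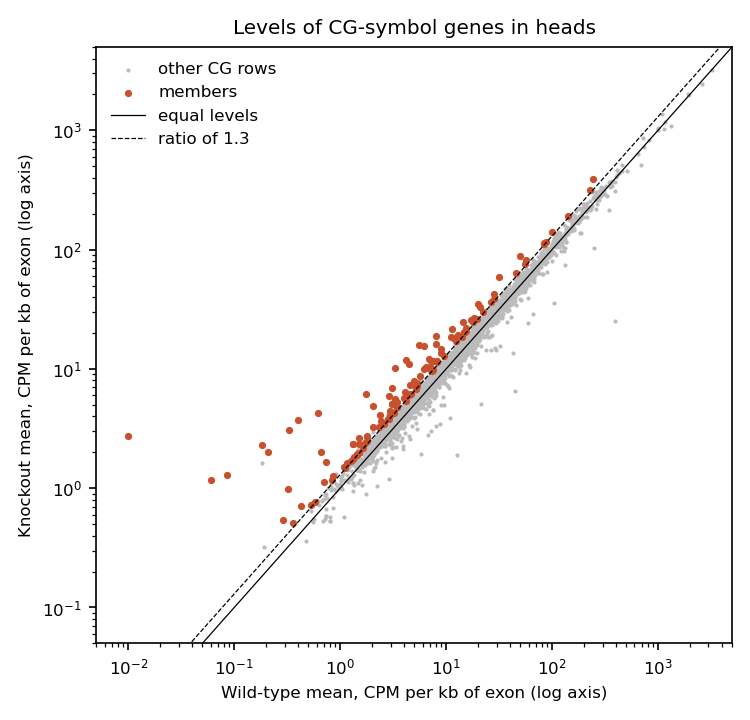
Mean level of each CG-symbol gene with a knockout mean of at least 2 CPM, per kilobase of annotated exon, in wild type (x) and knockout (y), both on log axes. Members are in red above the dashed line for a ratio of 1.3, and CG9445, at 0 in wild type, is not drawn.

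The same values met by other kinds of rows give the setting. Of 4834 rows with a symbol other than a CG number and a knockout mean of at least 2 CPM, 113 met them (2.34%), against 133 of 3593 CG rows (3.70%). The mirrored rule, lower in the knockout, was met by 107 of 3594 CG rows (2.98%). The current RefSeq annotation gives a name to 27 of the 133 members, while 106 still carry the CG number.

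A first group of members was close to silent in wild-type heads. CG33490 gave 1 count in the 3 wild-type libraries together and 274 in the knockout. Its CPM were 0, 0 and 0.052 in wild type and 3.81, 7.37 and 3.17 in the knockout, and the pooled counts over the pooled library totals gave a ratio of 284 with a 95% interval of 50.5 to 11200 that covers counting error only. Its only wild-type count came from replicate 3, and without that library the knockout was at least 64.1-fold higher by the same kind of floor as for the next gene. Knockout replicate 2 was the highest by a wide margin. CG9445 had no count in wild type and 1.90, 2.39 and 2.50 CPM in the knockout, at least 44.5-fold higher when wild type is set to a floor of 3 counts over the group, or at least 30.2-fold without wild-type replicate 3, where the floor is spread over fewer libraries. It shares 287 exon bases with CG15236 on the other strand, and CG15236 itself was at 102.0 to 113.0 CPM in wild type and 112.7 to 118.5 CPM in the knockout. No source used here says how the counting treated strand, and reads of such a pair may not be separated.

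CG12309, now CAH13, a carbonic anhydrase, an enzyme that interconverts carbon dioxide and bicarbonate, was at 0, 0 and 0.37 CPM in wild type and 2.10, 2.70 and 2.28 CPM in the knockout. All its wild-type counts came from replicate 3, the library that stood apart, so that a pooled ratio with a counting interval of 9.43 to 50.6 became at least 31.6-fold without it. CG12693 was at 0.11, 0 and 0.31 CPM against 2.05, 1.54 and 2.72 CPM, a pooled ratio of 15.5 (7.63 to 36.8), or 42.1 (11.4 to 352) without wild-type replicate 3. Its gene lies within an intron of norpA on the other strand, the phospholipase C of phototransduction, which went the other way, from 2157 to 2515 CPM in wild type to 1734 to 1767 CPM in the knockout (log2 fold change -0.51, edgeR adjusted p = 9.3e-05).

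CG17005 was at 0.42, 0.28 and 0.52 CPM in wild type and 6.05, 5.19 and 4.11 CPM in the knockout, a ratio of 12.5. The genes on both sides of it were called in opposite directions. lncRNA:CR45456, 1023 bases away on the same strand, had 0.21, 0 and 0 CPM in wild type and 1.27, 1.54 and 1.00 CPM in the knockout (log2 fold change 4.05, edgeR adjusted p = 0.0023), and Eaat1, the glial glutamate transporter, 3235 bases away, was lower by -0.22 in log2 (adjusted p = 0.0076).

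CG8478 was at 0.58, 0.42 and 0.42 CPM against 7.37, 3.44 and 2.83 CPM, a ratio of 9.60, and knockout replicate 1 was well above the other knockout libraries. CG15497, now Jhbp16, a relative of juvenile hormone binding proteins, was at 0.32, 0.66 and 0.47 CPM against 4.05, 3.44 and 6.002 CPM. CG13646, now mah, mahogany, a relative of amino acid transporters such as VGAT, was at 0.48, 0.09 and 0.99 CPM against 4.25, 5.14 and 5.17 CPM. In these 3 genes each knockout library was several times the highest wild-type library. Their nearest tested neighbours on both sides, Snap24 and MED6, Archease and PolA1, and Nmnat and tnc, were not called (edgeR adjusted p = 0.11 to 0.97). Further from CG8478, topi at 8986 bases was called lower (log2 fold change -2.72, edgeR adjusted p = 0.0036). So was CG12947 at 13929 bases (log2 fold change -0.35, adjusted p = 0.015). These calls were not followed through the alternatives.

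**Figure D2:**
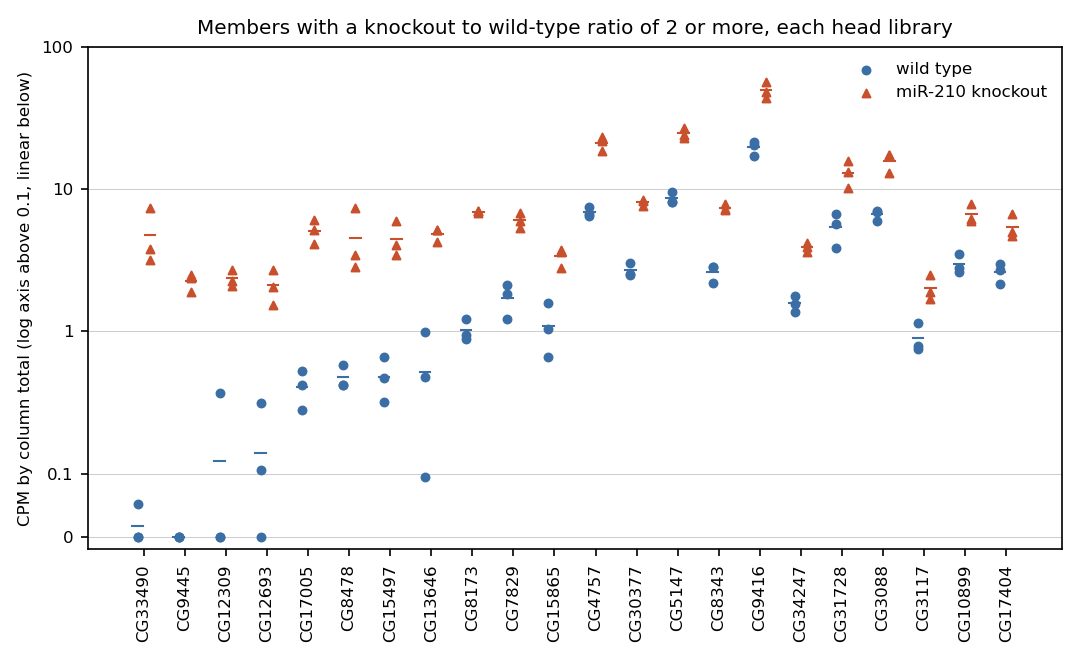
CPM of each head library for the 22 members with a ratio of at least 2, ordered by ratio, wild type as blue circles and knockout as red triangles, with a short line at each mean (log axis above 0.1 CPM, linear below). CG33490, CG9445, CG12309 and CG12693 have wild-type libraries at 0, and the symbols of the genotypes never overlap, as the rule required.

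The other members with ratios above 2.8 were detected in every library. CG8173, whose closest named protein is the kinase Tao at 28.0% identity, was at 0.95, 1.22 and 0.89 CPM in wild type and 7.03, 6.84 and 7.003 CPM in the knockout, a ratio of 6.82, with an SD of 0.10 CPM in the knockout. CG15865 was at 1.59, 0.66 and 1.05 CPM against 3.76, 3.603 and 2.78 CPM. CG8343, a relative of the lectin tfc at 31.1% identity, was at 2.85, 2.21 and 2.83 CPM against 7.81, 7.31 and 7.17 CPM. The spread within a genotype was small beside the gap between genotypes in CG8173 and CG8343, whereas in CG15865 it was nearly as wide as the gap. CG30377 was at 2.54, 2.49 and 3.04 CPM against 8.45, 8.27 and 7.67 CPM, a ratio of 3.03.

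A neighbour of CG30377 was higher as well. Dgk, diacylglycerol kinase, which turns diacylglycerol into phosphatidic acid, ends 4043 bases from CG30377 on the opposite strand. It was at 61.5, 64.5 and 57.8 CPM in wild type and 475.7, 510.8 and 492.3 CPM in the knockout (log2 fold change 2.95, edgeR adjusted p = 5.9e-11). Of the 12 tested genes within 40 kb of CG30377 other than itself, Dgk was called higher, where 3.97% of all genes were, and Cul1 lower (log2 fold change -0.13, adjusted p = 0.042, a call kept in 4 of 12 alternatives, with values up to 0.28).

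CG5147, now Polr3D, a subunit of RNA polymerase III, the enzyme that makes tRNA and 5S rRNA, was at 8.14, 8.16 and 9.52 CPM in wild type and 22.8, 24.1 and 27.1 CPM in the knockout, a ratio of 2.87. CG7341, 3385 bases away, was at 11.8, 10.9 and 12.6 CPM against 20.8, 22.5 and 26.8 CPM. Knockout replicate 1 was the lowest knockout library and replicate 3 the highest for both genes. mRpS26, a protein of the mitochondrial ribosome 349 bases from Polr3D, was higher too, by 0.45 in log2 (edgeR adjusted p = 0.022, and up to 0.097 in the alternatives, where 8 of 12 kept the call). In mRpS26 the highest knockout library was instead replicate 1, at 15.7 CPM, against 11.8 CPM in replicate 3.

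Members were next grouped by what their proteins resemble. The groups were made after the values were seen, hold 41 members in all, and leave 92 outside. They are not complete lists, and members outside a group may be of the same kind. Of the 133 proteins, 82 had a similar protein elsewhere in the genome by BLAST at an E value under 1e-05, and for 43 a named protein matched over at least 50% of the length at an E value under 1e-10.

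The group of serine proteases and their inactive homologs was given 7 members, with ratios of 1.39 to 3.52. Such proteins are secreted and act in digestion and in proteolytic cascades in the blood. CG7829, closest to kappaTry at 39.4% identity, was at 1.22, 2.11 and 1.83 CPM in wild type and 6.83, 5.30 and 6.002 CPM in the knockout. CG3088, closest to Jon66Ci at 50.2%, a digestive protease of the Jonah family, was at 5.97, 6.94 and 7.06 CPM against 17.4, 13.0 and 17.3 CPM. CG9733 is closest to CG11313 at 46.1%, and its closest named protein is Sp7 at 39.3%, a protease of the melanization cascade. CG9733 was at 16.1, 14.8 and 19.0 CPM against 32.4, 31.6 and 30.5 CPM. It was the highest of the 7 in the knockout per kilobase of exon, at 21.5 CPM. CG17404 had a ratio of 2.08 and CG31728, l(2)k05911, of 2.41, and in CG31728 the wild-type libraries ranged from 3.86 to 6.70 CPM. CG3117 and CG14892 had ratios of 2.25 and 1.39. The gut markers of the protease kind gave few or no counts in any library, and Jon99Cii and betaTry none. The gene closest in protein to CG17404, CG12256, lies 263 bases away and was at 2.92 ± 0.68 and 4.19 ± 0.51 CPM, which the fit did not call (log2 fold change 0.45, adjusted p = 0.19).

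Named genes taken for this family by a pattern on their symbols were called in both directions. There were 34 of them, 7 were tested, and 1 was called higher (SP2353, 14.3%) and 3 lower (grass, SP1173 and SP1029, 42.9%), against 3.97% and 6.12% over all genes. Their median was -0.13 in log2. Only grass among the 4 is known as a serine protease, of the Toll cascade. The prefix SP does not mark one, and SP1029 is a metallopeptidase. None of the 4 calls held throughout: grass and SP2353 kept theirs in 10 of 12 alternatives, SP1029 in 8 and SP1173 in 4, with adjusted p up to 0.063, 0.085, 0.094 and 0.15. Without knockout replicate 3 none of the 4 was called, and without replicate 1 only SP2353 was.

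Other peptidases gave 5 members. CG9416 and CG10062 lie 1611 bases apart on 2R and are both closest to CG11961, at 49.3% and 48.6% identity. CG9416 was at 21.5, 17.1 and 20.5 CPM in wild type and 56.5, 43.8 and 48.5 CPM in the knockout. CG10062 was at 22.7, 24.4 and 22.1 CPM against 48.6, 38.6 and 34.8 CPM. Both were highest in knockout replicate 1. The next gene, CG10073, 369 bases beyond CG10062, rose from 0, 0.09 and 0.21 CPM to 0.78, 0.64 and 0.61 CPM (log2 fold change 2.61, edgeR adjusted p = 0.019). That call was lost in 6 of 12 alternatives, with an adjusted p up to 0.099. CG11961, on the other side of CG9416, was at 33.2 to 35.5 CPM and 36.2 to 37.9 CPM and was not called (log2 fold change 0.06, adjusted p = 0.55). Rgk1, on that side at 10.7 kb from CG9416, was at 67.9 to 71.6 CPM and 91.8 to 97.8 CPM. It was called higher (log2 fold change 0.37, edgeR adjusted p = 1.6e-04). Of the 7 other genes tested within 40 kb of CG9416, 2 were higher and 0 lower, where 3.97% and 6.12% of all genes were.

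CG14527, now Nepl20, belongs to the neprilysin-like genes, relatives of a metallopeptidase that cuts small peptides, and stands in a row of them on 3R. It was at 6.81, 7.13 and 6.07 CPM in wild type and 10.5, 10.4 and 11.6 CPM in the knockout. Nepl21, 80.6% identical and 748 bases away, was at 104.0 to 115.2 CPM and 102.0 to 111.1 CPM, with overlapping groups. Nepl17 was lower (log2 fold change -0.52, edgeR adjusted p = 3.2e-04), and Nepl18 was higher by 0.27, a call lost without any of the 3 knockout libraries in turn (adjusted p up to 0.079). Thus neighbours of similar sequence took different directions. CG8550, now Nepl10, had a ratio of 1.34, and CG17684, closest to the dipeptidyl peptidase ome, was at 40.7 ± 3.0 and 62.2 ± 4.7 CPM.

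The second carbonic anhydrase, CG10899 or CAH4, was at 2.80, 2.63 and 3.51 CPM in wild type and 5.96, 6.20 and 7.84 CPM in the knockout. Its closest relative CAH5 and the closest relative of CAH13, CAH15, were listed at 0 in all libraries. Relatives of proteins that bind or cleave juvenile hormone, the hormone that times insect maturation and reproduction, gave 3 members with ratios of 1.61 to 9.34. Besides CG15497, CG16820 was at 10.7, 8.91 and 10.9 CPM against 16.9, 16.6 and 15.8 CPM. CG4757, a carboxylesterase whose closest named protein is the juvenile hormone esterase Jhe at 30.7%, was at 7.50, 6.71 and 6.44 CPM against 23.1, 21.8 and 18.7 CPM, a ratio of 3.08. Jhbp13, the closest relative of both CG15497 and CG16820 and 4.46 kb from the latter, was at 286.8 to 317.2 CPM and 261.3 to 298.1 CPM and was not called (adjusted p = 0.096). Jhbp11, 18412 bases from the member CG14257, went the other way, from 51.8 ± 7.9 to 7.6 ± 1.6 CPM. It was called lower (log2 fold change -2.82, edgeR adjusted p = 4.1e-07), and this call was not followed through the alternatives. The pattern on symbols used for named genes of this family took in no gene named Jhbp, so Jhbp11 and Jhbp13 are outside it. Of the 6 named genes that it took, 0 were called in either direction. Their median was -0.099 in log2. CG4757 stands among UDP-glycosyltransferase genes, whose enzymes attach sugars to small molecules, and the 3 of them called within 20 kb did not go 1 way. Ugt35B1, 5005 bases away, was at 53.2 to 71.9 CPM in wild type and 117.8 to 146.0 CPM in the knockout (log2 fold change 1.06, edgeR adjusted p = 3.7e-05). Ugt35E2, 2679 bases away, was at 7.95 to 9.80 CPM against 5.17 to 6.39 CPM and was lower (log2 fold change -0.70, adjusted p = 0.0034). Ugt302K1, 7358 bases away, was lower by -0.73 in log2 (adjusted p = 0.045), a call kept in 8 of 12 alternatives, with values up to 0.18.

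Sulfatases, lysosomal enzymes that remove sulfate from sugar chains, gave 3 members with narrow gaps. CG14291, now Sgsh, was at 2.32, 3.80 and 3.92 CPM against 5.47, 5.30 and 4.56 CPM, and CG12014, now Ids, had a ratio of 1.37. These enzymes act in human cells on heparan sulfate. CG18278 is 99.0% identical to CG30059, so that reads of the copies cannot be placed with certainty. The fit called none of the 3, and 3.97% of all genes were called higher.

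Enzymes of lipids gave 5 members with ratios of 1.35 to 1.74. CG1942, now Dgat2, which makes triacylglycerol from diacylglycerol, was at 7.24, 5.96 and 7.80 CPM in wild type and 9.42, 9.75 and 9.23 CPM in the knockout. Its copy CG1941, 73.0% identical and 0.597 kb away, was at 6.30 ± 0.72 and 6.27 ± 0.20 CPM. CG5991, now Pisd, which makes phosphatidylethanolamine in mitochondria, was at 35.8, 31.5 and 30.5 CPM against 44.4, 50.9 and 44.1 CPM. CG14946, now firl, a relative of the lipid droplet dehydrogenase Ldsdh1, had a ratio of 1.38 and is expressed per kilobase of exon at about the level of Pisd, 20.2 and 22.0 CPM in the knockout. CG18641, a lipase relative, and CG4592 had ratios of 1.41 and 1.74.

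Several members are relatives of proteins of the eye, although the photoreceptor markers went down. CG30054 is 70.9% identical to Galphaq, the G protein that couples rhodopsin to phospholipase C, and lies 0.529 kb from it. CG30054 was at 59.2, 39.5 and 54.4 CPM in wild type and 68.4, 75.3 and 70.8 CPM in the knockout. Galphaq was at 1687, 1681 and 1463 CPM against 1368, 1375 and 1356 CPM and was called lower (log2 fold change -0.30, edgeR adjusted p = 0.0030). The values of the neighbours thus differed in opposite directions. The adjusted p of Galphaq stayed under 0.026 in all 12 alternatives.

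CG30495, 63.9% identical to Rdh1, a retinol dehydrogenase, was at 2.64, 3.24 and 2.46 CPM against 3.47, 3.603 and 4.11 CPM, and Rdh1 was not called (log2 fold change 0.10). CG42260, whose closest protein is CngA at 48.1%, a subunit of a cyclic nucleotide-gated channel, was at 65.9, 66.7 and 67.9 CPM against 94.2, 90.03 and 98.0 CPM. CG13056 is 51.1% identical over 45% of its length to retinin, a protein of the corneal lens, and its gene stands 0.524 kb from that of retinin. CG13056 was at 41.6, 44.8 and 33.9 CPM in wild type and 53.6, 63.8 and 53.4 CPM in the knockout, whereas retinin was at 916.6 to 1009 CPM and 970.3 to 1003 CPM, with overlapping groups.

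CG13056 belongs to a cluster of short secreted proteins on 3L, in which 5 members lie between 16261185 and 16333782. CG13043 was the highest per kilobase of exon, with 316 CPM in the knockout against 4.48 to 142 for the other 4, and was at 156.6, 136.7 and 152.2 CPM against 204.3, 210.9 and 197.0 CPM, and CG13063, 730 bases away and 85.4% identical, was at 7.66, 6.05 and 7.48 CPM against 10.9, 9.17 and 11.1 CPM. CG34247, further off, had the highest ratio of the 5, from 1.37, 1.78 and 1.57 CPM to 3.61, 4.19 and 3.89 CPM. CG13060, with 1.64, 1.92 and 1.20 CPM against 2.25, 2.44 and 2.56 CPM, is 92.4% identical to CG13041, so that its reads may be incomplete. The genes between and beside them did not move together. Nplp3, a neuropeptide-like precursor, was higher by 0.31 in log2 (edgeR adjusted p = 0.014, up to 0.070 without knockout replicate 1, 2 or 3). CG13046, at 4.97 to 5.55 CPM and 1.91 to 2.59 CPM, was lower by -1.31 (adjusted p = 4.0e-04), CG13047 was lower by -3.18 (adjusted p = 0.0028), and CG13045 had 0.53 to 0.89 CPM in wild type and no count in the knockout (adjusted p = 0.0020). Of the 18 other genes tested within 40 kb of CG13063, 1 was higher and 3 were lower, where 3.97% and 6.12% of all genes were.

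Immune peptides gave a similar picture at a cluster on 2R. CG15067 and CG16836 are BomBc2 and BomT2, bomanins, short peptides that are secreted into the blood after Toll signalling, and lie 3406 bases apart. BomBc2 was at 110.2, 101.3 and 87.5 CPM in wild type and 146.6, 144.5 and 118.4 CPM in the knockout. BomT2 was at 5.49, 5.86 and 6.02 CPM against 8.25, 7.84 and 7.34 CPM. BomBc1, 1589 bases from BomBc2, was instead at 35.3, 42.3 and 39.5 CPM against 15.6, 15.2 and 12.8 CPM (log2 fold change -1.48, edgeR adjusted p = 1.5e-06), and BomS5 was lower by -1.40 (adjusted p = 0.026, lost in 4 of 12 alternatives with values up to 0.10). BomT1, BomS1, BomS2, BomS3, BomS4 and BomS6 were not called, and the fit did not call BomT2 either. Of the 22 other genes tested within 40 kb of CG15067, 1 was higher, GstE3, and 2 were lower, where 3.97% and 6.12% of all genes were. Higher and lower genes thus stood in the cluster among others that were not called.

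**Figure D3:**
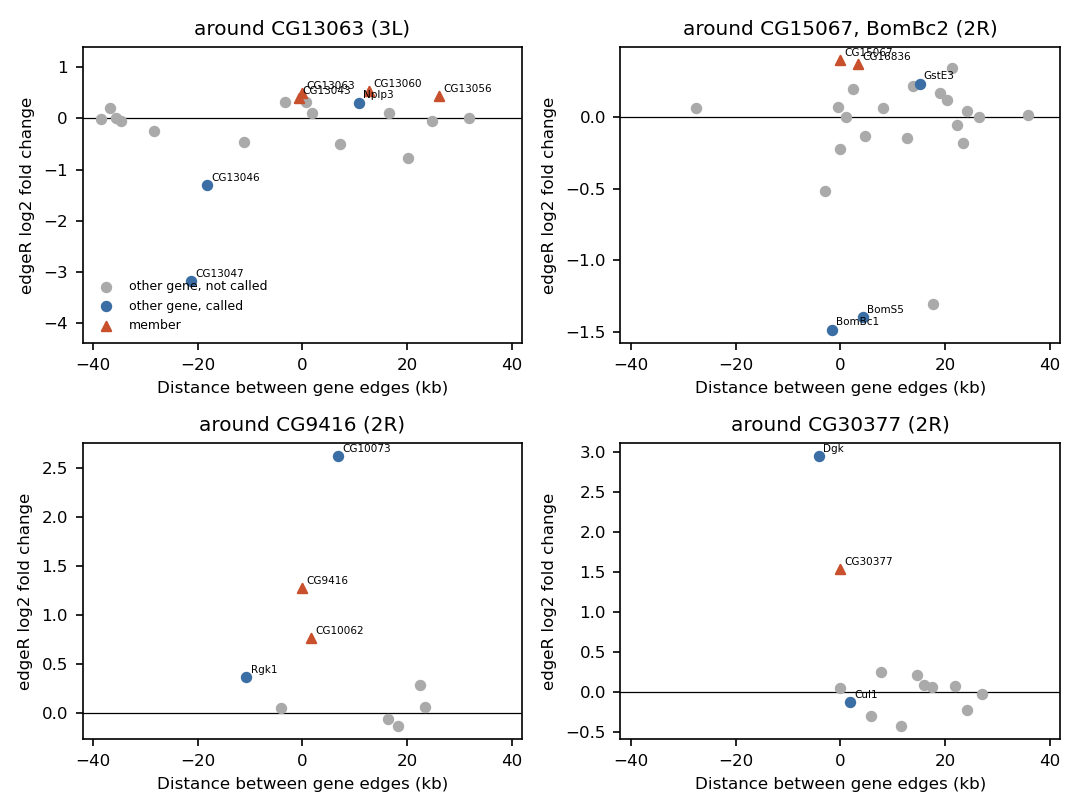
edgeR log2 fold change (knockout over wild type) of every tested gene within 40 kb of CG13063, CG15067, CG9416 and CG30377, against the distance between gene edges in kb, with members as red triangles, other called genes in blue and genes not called in grey. BomBc1 and BomS5 lie below 0 beside BomBc2 and BomT2, Dgk stands above CG30377, and CG13045, without a count in the knockout, is not drawn.

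CG17244, now Gbp3, growth-blocking peptide, a relative of cytokines of the fly, was at 19.2, 19.5 and 17.8 CPM against 28.8, 30.8 and 28.8 CPM. CG3513, related to the immune-induced peptide IM33 at 36.4%, had a ratio of 1.32. CG16756, a relative of the lysozyme LysP at 33.3%, was at 25.9, 27.5 and 25.1 CPM against 48.2, 49.8 and 41.0 CPM. Its neighbour on X, CG15784, 1354 bases away, was at 49.4, 52.4 and 57.6 CPM against 73.4, 73.4 and 71.5 CPM. Between them lies lncRNA:CR45517, which was higher as well, from 1.69 to 2.09 CPM to 3.02 to 4.98 CPM (log2 fold change 1.08, edgeR adjusted p = 0.0097, and 0.062 without knockout replicate 1). All 3 genes of this stretch are on the same strand.

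The group made for proteins that handle RNA is no complete list of such members. It holds 6 members. Besides Polr3D, they were CG4159 (Pus1, which makes pseudouridine in tRNA) with a ratio of 1.39, CG9125 (Rai1, a partner of a nuclear exonuclease) with 1.39, CG9143 (a relative of the helicase pths) with 1.35, CG2021 (a relative of SmB) with 1.63 and CG4749 (a relative of the methyltransferase Nsun2) with 1.49. CG9143 was at 9.51, 8.68 and 7.38 CPM against 11.4, 11.6 and 11.4 CPM, and the larger spread was in wild type.

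The members with the highest levels per kilobase of exon in the knockout had modest ratios. CG5697 was first at 389 CPM per kilobase, with 265.2, 242.1 and 208.8 CPM in wild type and 378.3, 412.8 and 360.9 CPM in the knockout, a ratio of 1.61. CG13043, BomBc2 and CG13056 followed with 316, 192 and 142 CPM per kilobase. CG32549, now Nt5b, a 5′ nucleotidase, was at 314.8, 300.0 and 294.5 CPM against 411.9, 407.8 and 390.7 CPM, and CG14770 was at 57.8 ± 3.1 and 78.5 ± 4.2 CPM. CG17841 was at 262 ± 10 and 342 ± 1.9 CPM, and it shares 831 exon bases with Psf3 on the other strand. CG17839, an immunoglobulin-domain relative of DIP-alpha and the member with the most counts, was at 338.8, 331.1 and 335.0 CPM against 462.4, 458.2 and 465.4 CPM. CG14933 was at 66.7 ± 2.3 and 97.9 ± 6.7 CPM, and 2 other annotated genes share most of its exons on the same strand. CG3165 was at 41.8, 42.2 and 42.2 CPM against 79.9, 74.7 and 77.9 CPM, the highest ratio of these 12 genes at 1.84. For BomBc2 the gap between the groups was narrow, 118.4 CPM in knockout replicate 3 against 110.2 CPM in wild-type replicate 1.

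A similar protein with a row in the table was found for 74 members, and for 7 of them it was another member. CG12541 and CG33143 are such a pair, similar over a short stretch (41.9% identity), at 30.0 ± 2.2 and 46.0 ± 2.7 CPM and at 40.6 ± 0.8 and 57.4 ± 2.7 CPM. CG14400 and CG32573 are another, at 21.8% identity, with ratios of 1.353 and 1.351. The remaining relatives were 65 genes, of which 47 were tested. The fit called 2 of them higher, Abca3 and Fkbp14, and 2 lower, Galphaq and Prx6b, which is 4.26% each way where 3.97% and 6.12% of all genes were called, and left 43 uncalled. CG12896, the relative of Prx6b, a peroxiredoxin that removes peroxides, was at 4.60, 7.55 and 6.17 CPM against 8.59, 11.2 and 9.73 CPM, while Prx6b was lower by -0.23 (edgeR adjusted p = 0.011, up to 0.061 without a knockout library) and Prx6c by -0.28 (adjusted p = 6.3e-04). The proteins of CG12896 and Prx6b are 99.1% identical, so that the split of reads between them is uncertain.

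**Figure D4:**
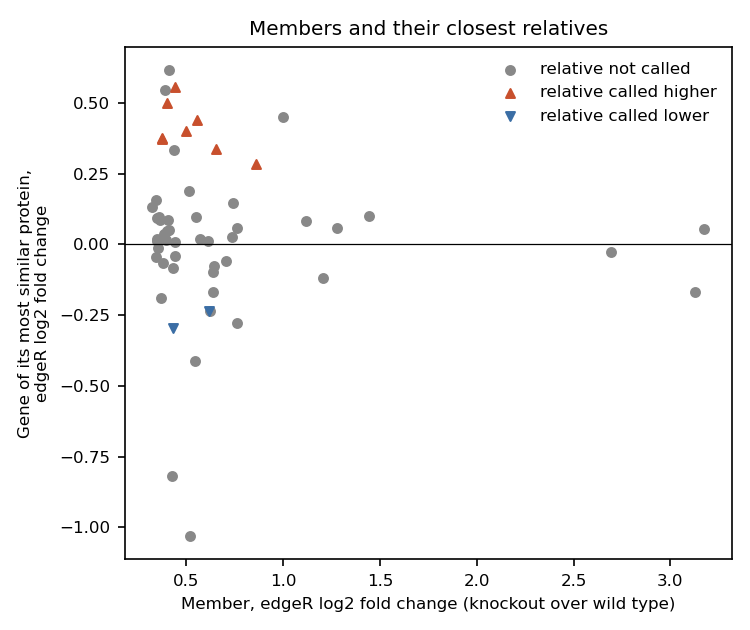
edgeR log2 fold change of each member (x) and of the gene with the most similar protein (y), for members whose relative was tested, with the relative's call given by colour and shape. Most relatives were not called, those called higher include relatives that are members themselves, and those called lower are Galphaq and Prx6b.

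Some members share their reads with each other or with another gene. CG42662 and CG30080 are annotated on the same transcripts and had identical counts in all 6 libraries, 2.96, 3.57 and 4.50 CPM against 7.76, 5.09 and 6.84 CPM. The same holds for CG42512 and CG32573 on X, at 8.61, 8.68 and 7.22 CPM against 11.9, 11.1 and 10.1 CPM. The 133 members thus hold 131 distinct sets of counts. Exons of 51 members overlap those of a gene on the other strand, by at least 100 bases in 22. In CG14400, which shares 127 bases with twit on the other strand, both were higher, twit going from 10.1 to 12.3 CPM to 21.9 to 23.7 CPM (log2 fold change 1.00, edgeR adjusted p = 3.1e-05).

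Some members lay close to each other. A further member lay within 20 kb of 19 members (14.3%), the pairs on shared transcripts included, and 8.76% of the other CG rows at the same minimum lay that close to a member. Within 10 kb the shares were 12.8% and 6.22%, and within 50 kb, at 17.3% and 16.3%, they were close to each other. The nearest tested genes on either side that were not members numbered 251, of which 21 were higher (8.37%) and 24 lower (9.56%), where 3.97% and 6.12% of all genes were. Their median log2 fold change was 0.0018. Of the members, 21 lay on 2L, 30 on 2R, 23 on 3L, 32 on 3R and 27 on X. The share of CG rows that were members was 3.30%, 4.44%, 3.23%, 3.49% and 4.27% in that order, and none of the 16 CG rows of chromosome 4 was a member.

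On X, where the deleted gene itself lies, 11 members had their midpoint within 2 Mb of mir-210. They were CG42512, CG32573, CG15865, CG34325, CG9125, CG43658, CG8173, CG32549, CG34330, CG15618 and CG12655, and they were 8.27% of the 133 CG rows of that stretch, whereas 16 of the 500 other CG rows of X were members (3.20%). CG8173, the member with the highest ratio there, is 0.42 Mb from mir-210. The median log2 ratio of all CG rows was 0.07 within the stretch and 0.08 on the rest of X. With TMM scaling 5 members met the rule within 2 Mb instead of 11, and without wild-type replicate 3 there were 10. The deletion and any sequence next to it that was inherited with it cannot be told apart in this design.

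**Figure D5:**
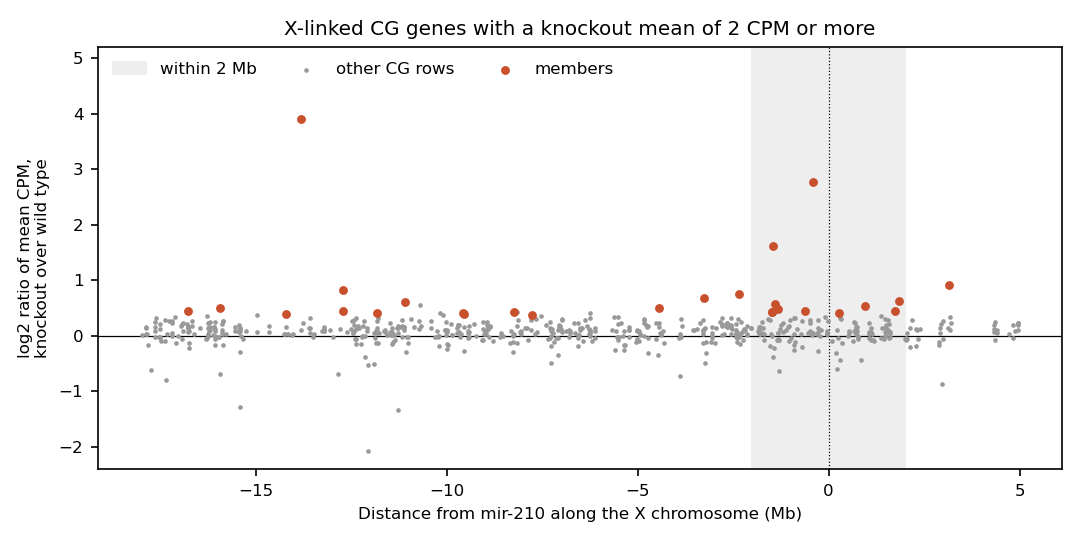
log2 ratio of mean CPM (knockout over wild type) of X-linked CG genes with a knockout mean of at least 2 CPM, against the distance of the gene's midpoint from mir-210 in Mb, with members in red and the 2 Mb on each side shaded. The members CG8173 and CG15865 stand above the other genes of the shaded stretch, at 2.77 and 1.63.

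The median protein length of the members was 352 amino acids against 417 for all CG rows at the minimum, and 13 members (9.77%) were under 100 amino acids against 4.21%. The shortest was CG42662 at 45 and the longest CG43658 at 2263 amino acids. The annotated 3′ UTR had a median of 178 bases against 272, and genes had a median of 3 exons against 4. A shorter 3′ UTR offers fewer places for a seed match, and the shares of genes with a match were not adjusted for it.

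Spread between replicates was larger than in CG rows as a whole, and counts were lower. The median coefficient of variation was 8.58% in the knockout and 10.1% in wild type, against 5.04% and 6.28%. Among the knockout libraries the highest value fell in replicate 1 for 55 members, in replicate 2 for 50 and in replicate 3 for 28. Among the wild-type libraries it fell in replicates 1, 2 and 3 for 50, 38 and 45 members. Without wild-type replicate 3, 116 of the 133 still met the rule and 170 genes met it in all.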

How the data were processed

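Heads were profiled by the authors with a stranded, single-end poly(A) protocol. Adapters were clipped by Trim Galore 0.3.7, TopHat2 placed the reads on Dm6, and SAMtools discarded those with several positions. The authors deposited whole-number counts for each gene. Which program counted the reads, and with what use of strand, is not given in the sources used here. The submitters' processing notes also list DESeq2. The authors' table of the head comparison, which holds their own fold changes and p-values, was used for gene symbols only. The miRNA counts of 12 small RNA libraries were not used here.

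Members and gene lists were chosen with earlier results of these data known. CPM were computed from the deposited counts by column total. All 9470 genes kept by filterByExpr were fitted with edgeR 4.0.16 in R 4.3.3 (TMM, quasi-likelihood test, Benjamini-Hochberg adjustment, threshold 0.05), with limma 3.58.1 and DESeq2 1.42.0 as alternatives. Totals were 17992976 to 21315973 counts, and the common dispersion corresponds to a coefficient of variation of 5.54% between replicates. Intervals and floors cover counting error only.

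Of 15406 rows, 15186 matched the RefSeq annotation (Release 6) by identifier, 183 by symbol or synonym and 37 not at all. Among members, 129 matched by identifier and 4 by symbol. Levels are compared between genes per kilobase of annotated exon. Proteins, 1 per gene and the longest, were compared with BLAST+ 2.17.0. Python 3.11.15, pandas 2.3.3 and matplotlib 3.10.9 were used. Members named are the 15 with the largest ratio, the 12 with the highest level per kilobase, the 12 highest among ratios of at least 2, the 5 ratios nearest the threshold on each side, members within 20 kb of another, members with a seed match, and members whose most similar protein is another member. Other members and genes were named after their values were seen. Alternatives were other scalings and tests, other minimums and ratios, other distances and seed words, a replicate block and each library left out.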

Additional observations from a re-analysis of the deposited data

How the results depend on the processing

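Of 133 members, 88 met the rule under TMM scaling, DESeq2 size factors and with each library left out in turn. The rule was met by 96 genes with either scaling, 155 at a minimum of 1 CPM, 94 at 5 CPM, 60 at a ratio of 1.5, 158 without the condition on overlap, 131 with genes of identical counts taken once (chosen after seeing the data) and 145 to 179 with a library left out. The members' median log2 ratio was 0.58 with TMM scaling (0.5792) and with DESeq2 size factors (0.5809), 0.57 (0.5739) and 0.52 (0.5234) at minimums of 1 and 5 CPM, 0.81 at a ratio of 1.5, 0.51 without the condition on overlap, and 0.49 to 0.54 with a library left out, against an SD of 0.019 over the knockout libraries, so that most of these differ by more than that SD.

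The fit called 956 genes and 86 members. A fold of at least 1.5 left 246 genes and 44 members, and leaving out a library gave 594 to 1278 genes and 67 to 92 members. The lowest count of genes, 594, came without knockout replicate 1, and 620 were called without knockout replicate 2. By library totals the split was 793 higher and 407 lower (66.1% higher) against 376 and 580 (39.3%). DESeq2 called 825 genes and 71 members. With the replicate number as a block 855 genes and 79 members were called. Deviations of same-numbered libraries correlated at -0.080, 0.068 and 0.10, and those of differently numbered libraries at -0.18 to 0.14. With 3 libraries a genotype, these values cannot settle whether the numbers pair the libraries. Matches to 6 bases were found in 24 members and, by the annotated numbering, matches to 8 bases in 0, against 4. The distances of 10 and 50 kb gave 17 and 23 members near another, against 19. The 4 Mb and 1 Mb stretches around mir-210 held 14 and 4 members (chosen after seeing the data). Of 32 called genes named beside the members and followed through the alternatives, 18 kept the call in every alternative that fitted them.

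Low counts limit these values: 74 members had a knockout mean under 10 CPM, and with 3 libraries a genotype the spread of each gene is poorly known. Column totals place knockout values slightly above TMM scaling, and the cause was not tested.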
